A study of Rattus norvegicus with 12 samples.

Results

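Genes of the immunoproteasome and of peptide loading onto MHC class I molecules were described in rat hippocampal slices treated with antibodies to Nogo-A. The set holds 9 genes, Psmb8, Psmb9, Psmb10, Psme1, Psme2, Tap1, Tap2, Tapbp and B2m. They were read by the 12 probe sets annotated to exactly 1 of these symbols, out of 31042 probe sets tested. Psme1, Tap1 and B2m each had a pair of probe sets, and no member was left out by a filter.

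Slices of hippocampus from Wistar rats at postnatal day 7, 350 µm thick and 4 to an insert, were kept in culture at 33 °C until day 26 in vitro. The 7B12 group received a monoclonal antibody to amino acids 763 to 820 of Nogo-A, a membrane protein of oligodendrocytes and some neurons that limits neurite growth. The 11C7 group received a monoclonal antibody to amino acids 623 to 640 of the same protein. The IgG group received a monoclonal antibody against wheat auxin as the control antibody, and the NT group received none. Antibodies were given at 3 µg/ml for 5 days from day 21, with fresh medium every 2 days, and all cultures were of the same age at collection. Each group had 3 arrays, and each array carried RNA pooled from 24 cultures, so an array averages over cultures and over all cell types of the slice, and with 3 per group the number of arrays sets the precision. In such bulk RNA, fewer cells of a type and less RNA per cell cannot be told apart. Replicates were separate cultures from different animals per the design text, and replicate numbers 1 to 3 recur in every group.

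What the authors deposited are ratios, 1 for each probe set and array, given here on the log2 scale after subtraction of the array's median. On this scale a difference of 1 is a doubling, and levels of different genes cannot be compared. It follows that the presence of a cell type could not be checked from its markers, only how the markers differed between arrays. A change is a group's mean minus that of the controls, IgG and NT averaged, with the standard error (SE) of limma's fit. The arrays of 11C7 were unlike each other for these genes. Against the controls of its number, the mean of the 9 genes stood at 0.67 in 11C7 1, close to the 0.63 of 7B12 1, while 11C7 2 and 3 stood at 0.14 and -0.25. The labels put 11C7 1 in the 11C7 group, and whether that label is right was not tested. The main medians in 11C7 are given also without it.

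MHC class I molecules display peptides from inside the cell to CD8 T cells. The peptides are cut by the proteasome, carried into the endoplasmic reticulum by the TAP transporter and fitted there to a heavy chain paired with beta-2-microglobulin. Interferons, above all interferon gamma, are known to raise most of these genes together and to exchange the ordinary catalytic subunits of the proteasome for those of the immunoproteasome. In the brain the route is known to be low at rest, to be most readily raised in microglia, and to be used also by neurons, where class I proteins take part in synapse remodelling.

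Because these genes are known to respond together to interferon, the stretches of promoter that hold the relevant short motifs are shown. All 9 members had a promoter window in the RefSeq table (build GRCr8), which runs from 250 bases before to 50 after the start of the gene. In the sequences below, read 5′ to 3′ on the strand of the gene, capitals mark GAAANNGAA, the core of the interferon-stimulated response element, and GGNNTTTCC, a pattern of NF-kappaB sites, or their reverse complements. The stretch of Psmb8 lies at chr20:4657011-4657049 on the minus strand, that of Psmb10 at chr19:50743286-50743380 (minus) and that of Psme2 at chr15:33052781-33052819 (minus). The stretch of Tap1 lies at chr20:4668574-4668678 (minus), that of Tap2 at chr20:4652314-4652352 (minus), that of Tapbp at chr20:4967874-4967952 (minus) and that of B2m at chr3:129549165-129549216 (plus).
Psmb8: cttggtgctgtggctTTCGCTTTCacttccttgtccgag
Psmb10: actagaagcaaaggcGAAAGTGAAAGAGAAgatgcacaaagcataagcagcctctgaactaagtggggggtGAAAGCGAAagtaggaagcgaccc
Psme2: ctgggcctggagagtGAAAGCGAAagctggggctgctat
Tap1: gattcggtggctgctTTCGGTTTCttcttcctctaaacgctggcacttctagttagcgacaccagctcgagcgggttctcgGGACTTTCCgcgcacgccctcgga
Tap2: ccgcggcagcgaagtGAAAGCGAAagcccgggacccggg
Tapbp: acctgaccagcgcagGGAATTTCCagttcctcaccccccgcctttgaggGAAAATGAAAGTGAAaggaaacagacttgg
B2m: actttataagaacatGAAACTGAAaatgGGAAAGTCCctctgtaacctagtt

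Both strands were searched. GAAANNGAA was found in 7 of the 9 members, in Pomp alone among 6 constitutive proteasome genes, and in 9.71% of all 33469 promoter windows. Psmb10 held 3 matches and Tapbp 2, and in each of them 1 pair of matches overlapped. In Psmb8 the match lay on the start site itself, while in the other 6 members matches began at -150 to -17 relative to the start. The windows of Psmb9 and Psme1 held no GAAANNGAA, which says only that these letters were not in those windows. GGNNTTTCC was found in Tap1, Tapbp and B2m, in 0 of 6 constitutive genes and in 6.05% of all windows. TTCNNNGAA, a STAT pattern, was found in Psmb8 and in 8.87% of all windows. The Sp1 pattern GGGCGG was found in 5 members, in 4 of the 6 constitutive genes and in 33.1% of all windows, and TGACGTCA, a cyclic AMP response element, in 0 members and 1.83% of windows. The starts of Psmb9 and Tap1 lie 457 bases apart on opposite strands, so their windows share 44 bases, and 5 members lie on chromosome 20.

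**Figure D1:**
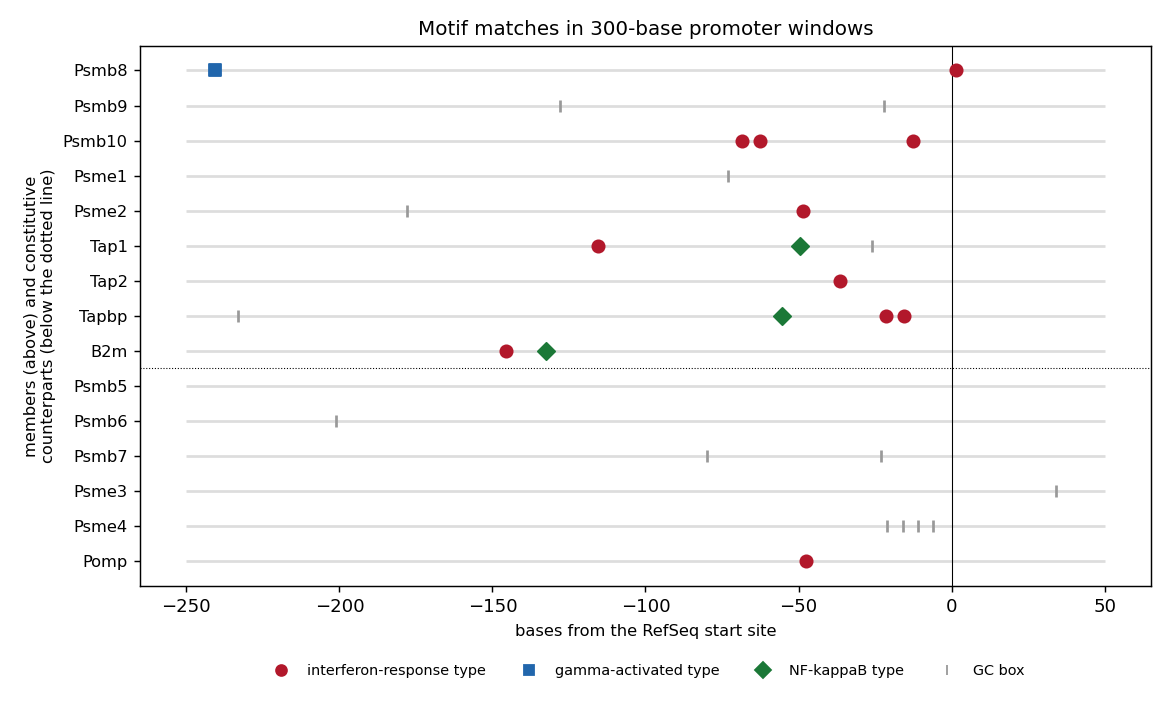
Motif matches in the promoter windows of the 9 members and 6 constitutive proteasome genes, by distance of the match's centre in bases from the start of the gene (x axis), with 1 line per gene. Circles stand for GAAANNGAA (interferon-response type), the square for TTCNNNGAA (gamma-activated type), diamonds for GGNNTTTCC (NF-kappaB type) and ticks for GGGCGG (GC box). Matches to GAAANNGAA were found in 7 of the 9 members and in 1 of the 6 constitutive genes.

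With 7B12, the genes of the immunoproteasome and of peptide loading stood above the controls almost throughout, yet none passed the adjusted test in the fit of all arrays. The change was above 0 in 11 of 12 probe sets, against 50.3% of all probe sets, and its median was 0.70 (range -1.10 to 1.48), against 0.003 over all probe sets. Psmb9 stood 2.27-fold, Psmb8 2.16-fold and Tap1 by 1388149_at 1.78-fold above the controls. With 11C7 the same 11 probe sets lay above 0, against 51.5% of all probe sets. The median of the 12 was 0.29, or 0.12 without 11C7 1, against 0.010 over all probe sets. These contrasts share their control arrays, so the likeness of their signs is not a separate finding.

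The 3 inducible catalytic subunits of the immunoproteasome each take the place of an ordinary subunit. Psmb8 (1367786_at), which replaces Psmb5, had log2 values of 0.82, -0.11 and 1.68 in 7B12, of 0.72, -0.70 and 0.23 in 11C7, of -0.27, -1.10 and 0.56 in IgG and of -0.29, -1.24 and 0.47 in NT, each for replicates 1, 2 and 3. In every group replicate 2 was the lowest, and in 7B12, IgG and NT replicate 3 was the highest, so the groups overlapped widely although 7B12 was the highest array of each number. Against the mean of the controls of its own number, 7B12 stood higher by 1.10, 1.07 and 1.16, a mean of 1.11 ± 0.05 (SD, n = 3). Replicate number accounted for 60.7% of the spread of Psmb8 over the 12 arrays and group for 31.1%, against medians of 35.2% and 18.3% over all probe sets. The change in 7B12 was 1.11 ± 0.54 (SE, 2.16-fold), with an adjusted p of 1 in limma. Without 7B12 3 it was 0.67. With the replicate number as a block the adjusted p was 0.291, and with the block and the 11C7 arrays left out of the fit it was 0.0276 (SE 0.09). In that last fit Psmb8 was the 1 member that rose past the threshold, against 0.197% of all probe sets called higher.

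Psmb9 (1370186_at), which replaces Psmb6, had values of 0.84, 0.96 and 1.59 in 7B12, of 1.37, 0.02 and -0.06 in 11C7, of 0.02, -0.30 and 0.15 in IgG and of 0.04, -0.27 and 0.07 in NT. All 3 arrays of 7B12 lay above all 6 controls, as did 11C7 1, while 11C7 2 and 3 lay among them. The change in 7B12 was 1.18 ± 0.32 (SE), with an adjusted p of 0.634 in limma, of 0.349 with the replicate block and of 0.0885 with the block and without 11C7. Unlike Psmb8, its spread followed the group (61.2%) more than the number (9.89%).

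Psmb10 (1374033_at), which replaces Psmb7, stood at 0.21, 0.34 and 0.81 in 7B12, at 0.39, -0.18 and -0.06 in 11C7, at -0.53, -0.33 and 0.30 in IgG and at -0.46, -0.36 and 0.13 in NT. The lowest array of 7B12 lay under IgG 3, but 7B12 stood above the controls of its own number by 0.70, 0.69 and 0.60. The change was 0.66 ± 0.25 (SE, 1.58-fold; adjusted p = 0.864 in limma).

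**Figure D2:**
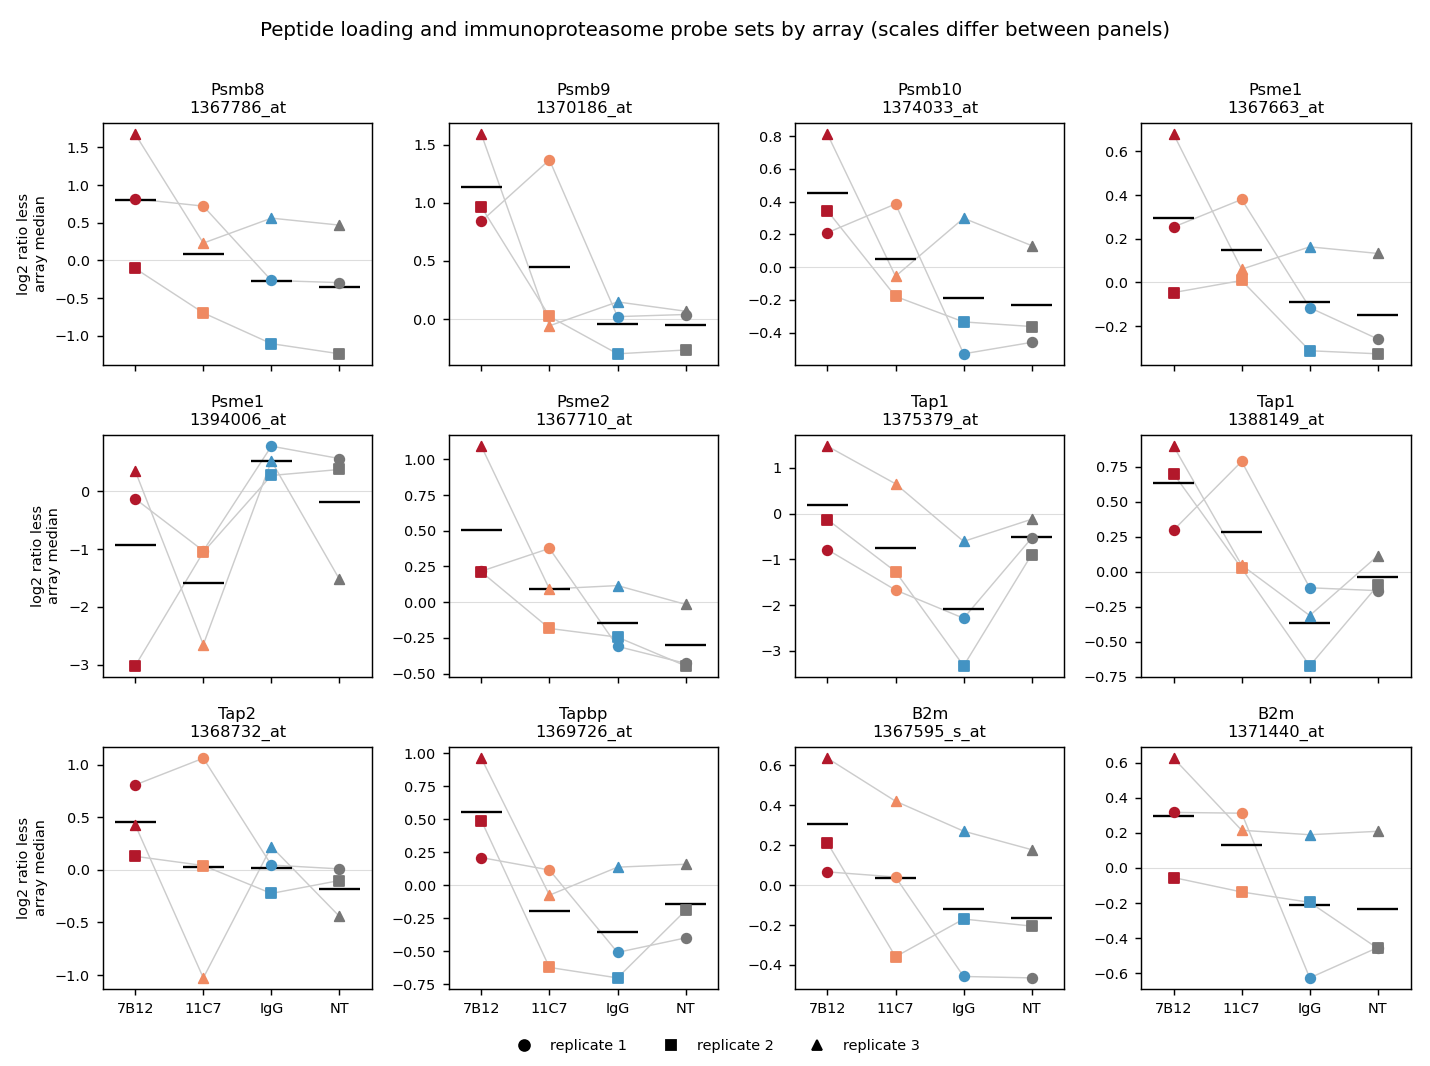
Log2 ratio less the array median (y axis) of the 12 member probe sets in the 4 groups, 7B12, 11C7, IgG and NT from left to right. Each point is 1 array, its shape gives the replicate number, grey lines join arrays of the same number, black bars are group means, and the scale differs between panels. Psmb9 lies above all 6 controls in the 3 arrays of 7B12, whereas Psmb8 overlaps between groups and shifts with the replicate number.

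The activator of the proteasome that opens its gate to peptides is built from the products of Psme1 and Psme2. Psme2 (1367710_at) had values of 0.22, 0.21 and 1.09 in 7B12, of 0.38, -0.18 and 0.09 in 11C7, of -0.31, -0.24 and 0.12 in IgG and of -0.43, -0.45 and -0.02 in NT. The 3 arrays of 7B12 lay above all 6 controls. The change was 0.73 ± 0.24 (SE, 1.66-fold; adjusted p = 0.799 in limma), and 0.44 without 7B12 3.

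The probe sets of Psme1 went apart. By 1367663_at its values were 0.25, -0.05 and 0.68 in 7B12, 0.38, 0.01 and 0.06 in 11C7, -0.12, -0.31 and 0.16 in IgG and -0.26, -0.33 and 0.13 in NT, a change of 0.42 ± 0.21 (SE) in 7B12, or 0.22 without 7B12 3. By 1394006_at they were -0.13, -3.02 and 0.35 in 7B12, -1.03, -1.05 and -2.65 in 11C7, 0.78, 0.27 and 0.52 in IgG and 0.56, 0.38 and -1.52 in NT. Here 7B12 2 and 11C7 3 were far below the rest, and NT 3 was the next lowest. The change of this probe set was -1.10 ± 0.77 in 7B12, -0.06 without 7B12 2, and -1.74 ± 0.77 in 11C7, and its correlations with the other members over the 12 arrays ran between -0.40 and 0.32. No direction is therefore given for Psme1.

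Tap1 and Tap2 encode the paired chains of the transporter that moves peptides into the endoplasmic reticulum. By 1388149_at, Tap1 stood at 0.30, 0.70 and 0.90 in 7B12, at 0.79, 0.02 and 0.05 in 11C7, at -0.12, -0.67 and -0.31 in IgG and at -0.14, -0.10 and 0.11 in NT. All 3 arrays of 7B12 lay above all 6 controls, and the change was 0.83 ± 0.23 (SE, adjusted p = 0.634 in limma, 0.353 with the replicate block). Group accounted for 68.5% of its spread and number for 4.87%.

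The other probe set of Tap1, 1375379_at, was dim, a name given here to probe sets whose median ratio over the arrays was under 1. Its values were -0.79, -0.13 and 1.47 in 7B12, -1.67, -1.27 and 0.65 in 11C7, -2.29, -3.33 and -0.61 in IgG and -0.53, -0.89 and -0.12 in NT. The IgG array was the lowest of its number in all 3 numbers. The change in 7B12 was 1.48 ± 0.72 (SE) against both controls, 0.84 without 7B12 3 and 2.26 with IgG alone as the control. It was 0.70 with NT alone as the control, an alternative chosen after seeing the data, and 7B12 1 lay below NT 1.

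Tap2 (1368732_at) stood at 0.81, 0.13 and 0.43 in 7B12, at 1.06, 0.04 and -1.03 in 11C7, at 0.05, -0.22 and 0.22 in IgG and at 0.01, -0.10 and -0.44 in NT. The 7B12 array was above both controls of its number in 3 of 3, but 7B12 2 lay below IgG 3, and the change was 0.54 ± 0.39 (SE, 1.45-fold). Array 11C7 3 was the lowest of all and 11C7 1 the highest.

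Tapbp (1369726_at) encodes tapasin, which holds the heavy chain to the transporter while peptides are chosen. Its values were 0.21, 0.49 and 0.96 in 7B12, 0.12, -0.62 and -0.07 in 11C7, -0.51, -0.70 and 0.14 in IgG and -0.40, -0.19 and 0.16 in NT. The 3 arrays of 7B12 lay above all 6 controls, and the change was 0.80 ± 0.27 (SE, 1.75-fold; adjusted p = 0.787 in limma).

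B2m encodes beta-2-microglobulin, the light chain of every class I molecule. By 1367595_s_at it stood at 0.07, 0.21 and 0.63 in 7B12, at 0.04, -0.36 and 0.42 in 11C7, at -0.46, -0.17 and 0.27 in IgG and at -0.46, -0.21 and 0.18 in NT. By 1371440_at it stood at 0.32, -0.05 and 0.63 in 7B12, at 0.31, -0.14 and 0.22 in 11C7, at -0.63, -0.20 and 0.19 in IgG and at -0.45, -0.46 and 0.21 in NT. Both probe sets put 7B12 above the controls of its number in 3 of 3 while the groups overlapped, with changes of 0.45 ± 0.25 and 0.52 ± 0.25 (SE). By 1367595_s_at it was 0.28 without 7B12 3.

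Counted together, 0 of 12 member probe sets passed an adjusted p of 0.05 in 7B12, and limma called 0% of the 31042 probe sets. At an unadjusted p under 0.05, 958 probe sets were higher and 657 lower in 7B12. Among them were 5 members, all higher (Psmb9, Psmb10, Psme2, Tapbp and Tap1 by 1388149_at), against 3.09% of all probe sets. With the replicate number as a block 10 were higher, all but Tap2 and the second probe set of Psme1, against 5.16% of all. In that limma fit adjusted p ran from 0.291 to 0.447 over these 10, and up to 0.709 over all 12. In 10 of 12 the 7B12 array lay above both controls of its number in all 3 numbers, against 8.07% of all probe sets. In 4 of 12, those of Psmb9, Psme2, Tapbp and Tap1 by 1388149_at, all 3 arrays of 7B12 lay above all 6 controls, against 1.99%.

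**Figure D3:**
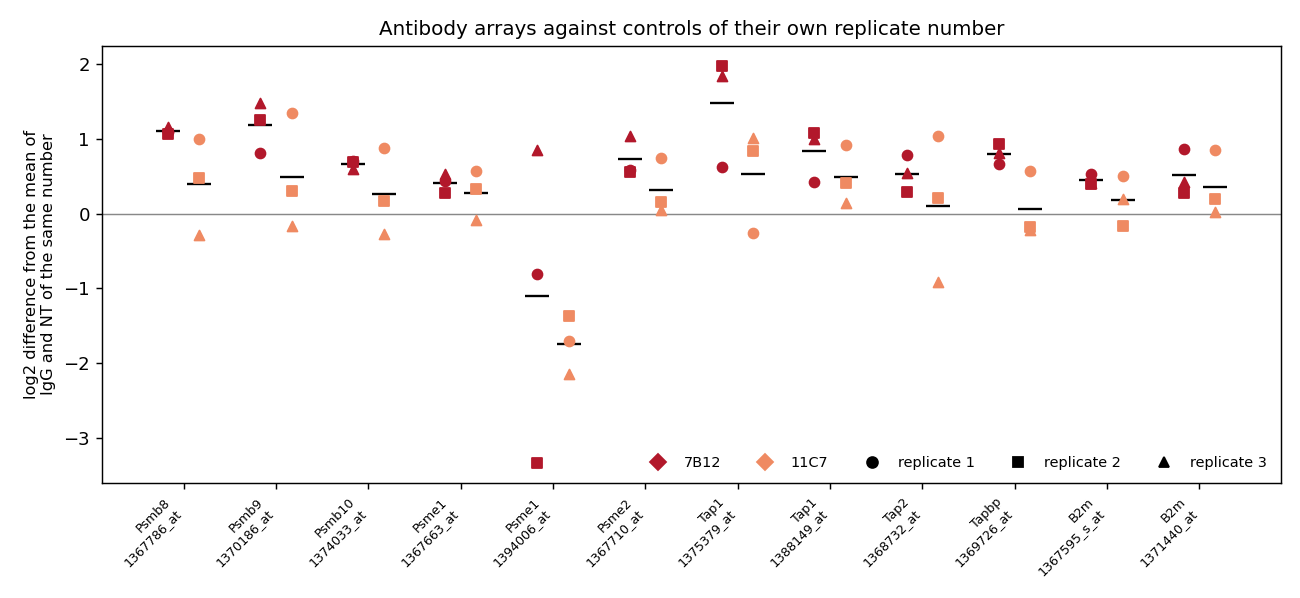
Difference of each antibody array from the mean of the 2 control arrays of the same replicate number (y axis, log2), for the 12 member probe sets (x axis), with 7B12 left of 11C7. Each point is 1 replicate number and black bars are their means. In 7B12, 11 of 12 probe sets lie above 0 in all 3 numbers, whereas in 11C7 number 1 stands highest in 10 of 12.

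With 11C7, the difference from the controls depended on the replicate number. In number 1 it was above 0 in 10 of 12 probe sets, all but the second of Psme1 (-1.70) and the dim one of Tap1 (-0.26), and in number 3 it ran from -2.15 to 1.02. Relative to the controls of the same number, the mean over the 9 genes stood at 0.67, 0.14 and -0.25 in replicates 1, 2 and 3 of 11C7, while in 7B12 it stood at 0.63, 0.57 and 0.91. Without the second probe set of Psme1 it stood at 0.79, 0.23 and -0.14 in 11C7 and at 0.70, 0.77 and 0.89 in 7B12. On this mean, the antibodies lay on opposite sides of the controls in number 3. On the same scale Psmb9 stood at 1.34, 0.31 and -0.17 in 11C7, and Psmb8 at 1.00, 0.48 and -0.28. In limma 0 of 12 members passed the adjusted test in 11C7, with 0% of all probe sets called, and 307 probe sets were higher and 692 lower at an unadjusted p under 0.05. Of the members 0 were higher at that p, against 0.989% of all probe sets, and 1, the second probe set of Psme1, was lower, against 2.23%. In 1 of 12, B2m by 1371440_at, the 11C7 array lay above both controls of its number in all 3 numbers, against 4.5% of all probe sets, and in 0 of 12 did all 3 arrays lie above all 6 controls, against 0.767%.

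For the mean of both antibodies the median change of the members was 0.45, or 0.38 without 11C7 1. In limma 0 of 12 members passed the adjusted test, with 0% of all probe sets called and 735 higher and 607 lower at an unadjusted p under 0.05. At that p 4 members were higher (Psmb9, Psmb10, Psme2 and Tap1 by 1388149_at), against 2.37% of all probe sets. The second probe set of Psme1 was the 1 lower, against 1.96%. With the replicate block 10 were higher, all but Tap2 and the second probe set of Psme1, against 4.46%, and their adjusted p ran from 0.45 to 0.556.

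Set directly against 11C7, 7B12 had the higher group mean in 12 of 12 member probe sets, against 50.4% of all probe sets above 0. The median difference was 0.42 (range 0.15 to 0.95). Without 7B12 3 the median was 0.22, and without 11C7 1 it was 0.58. Within replicate numbers the sign was mixed. In number 1, 7B12 lay below 11C7 for Psmb9 (-0.53), Tap1 by 1388149_at (-0.49) and Tap2 (-0.25). It also lay below for Psmb10 (-0.17), Psme2 (-0.16) and Psme1 by 1367663_at (-0.13). In number 2 it lay below for both probe sets of Psme1 (-0.06 and -1.97), and in number 3 for none. In limma 0 of 12 passed the adjusted test (0% of all, with 808 higher and 381 lower at an unadjusted p under 0.05), and 1 of 12, Tapbp, was higher at an unadjusted p under 0.05, against 2.6% of all. With the replicate block these were 2, Psmb8 and Tapbp, against 3.98%. Tapbp stood 0.75 ± 0.31 (SE) higher in 7B12 than in 11C7, Psmb8 0.71 ± 0.63 and Psmb9 0.69 ± 0.37, so a difference between the antibodies was not shown for any member. Leaving out 1 array at a time gave 0.44 to 1.15 for Psmb9, 0.27 to 1.16 for Psmb8 and 0.53 to 0.92 for Tapbp. Without 11C7 1 these stood at 1.15, 1.03 and 0.90. That array was the highest of 11C7 for each of the 3 genes, so its removal had to widen the difference.

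Slices given the control antibody lay close to untreated ones for most members. IgG less NT had a median of 0.04 over the 12 probe sets, with 9 above 0, against 48.7% of all probe sets. It ran from -0.21 to 0.19 in the 9 probe sets other than those of Tap1 and the second of Psme1. In limma 0 of 12 passed, with 0% of all probe sets called and 408 higher and 311 lower at an unadjusted p under 0.05. For Tap1, IgG less NT was -1.56 ± 0.83 (SE) at the dim probe set and -0.33 ± 0.26 at the other, and -0.93 and -0.17 without IgG 2. With the replicate block the dim probe set was the 1 member lower at an unadjusted p under 0.05, against 1.63% of all probe sets.

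The members resembled each other over the 12 arrays. Over the 66 pairs of probe sets the Pearson correlation had a median of 0.71 and a range of -0.40 to 0.94, and the lowest belonged to a pair with the second probe set of Psme1. After the mean of each replicate number was taken off, the median over the 55 pairs without that probe set was 0.83 (range 0.16 to 0.97). Without that step it was 0.76 over these pairs (range -0.15 to 0.94). Tap1 by 1375379_at with Tap2 was then the lowest, and Tap2 with B2m by 1367595_s_at stood at -0.02. The closest pair was Psmb10 with Psme2 (0.94), followed by Psmb8 with Psme1 by 1367663_at (also 0.94). All values of an array come from 1 hybridisation of 1 RNA pool, so these correlations are a description of 12 points with a shared source.

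Probe sets of other genes followed the mean pattern of the members. The ranking took in 20642 probe sets with 1 symbol. Members, the other genes of the route and the cell type markers described below were left out of it. The 8 most like the mean pattern had correlations of 0.96 to 0.98 over the 12 arrays. They were Havcr1, a cell surface receptor gene, Tnip1, a brake on NF-kappaB signalling, Tlr2, a receptor for bacterial lipoproteins, Sfmbt2, the septin gene Septin6, the chloride channel gene Clic4, Lmo2, a transcription cofactor gene, and Irak2, a kinase gene of the Toll-like receptor pathway. Septin6 stood 2.33 above the controls in 7B12, Havcr1 2.19, Tlr2 1.75 and Tnip1 0.97. Havcr1 had values of 1.55, 0.88 and 3.21 in 7B12, of 1.34, -1.03 and -0.02 in 11C7, of -0.42, -0.75 and 0.53 in IgG and of -0.47, -0.86 and 0.10 in NT. These genes were chosen for this likeness, so their values are a description.

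With 7B12 the constitutive proteasome genes that were measured had a median change near 0. Psmb5, Psmb7, the gene of the activator Psme4 and the assembly factor gene Pomp were read by 8 probe sets. Their median change was -0.01 in 7B12 (range -0.22 to 0.28). At an unadjusted p under 0.05 there were 0 of 8, against 3.09% of all probe sets higher and 2.12% lower. In 11C7 the median was 0.001, also with 0 at that p, against 0.989% of all probe sets higher and 2.23% lower. The changes there ran from -1.38 (Psmb5 by 1385532_x_at, SE 0.91) to 0.15. Of these genes, inducible subunits replace only Psmb5 and Psmb7. In 7B12 Psmb7 stood at 0.01 ± 0.12 (SE) and Psmb5 at 0.07 ± 0.14 by 1371348_at. By 1385531_at and 1385532_x_at, Psmb5 had changes of -0.08 ± 0.79 and 0.28 ± 0.91 in 7B12. These probe sets ranged from -2.13 to 0.70 and from -2.13 to 2.10 over the 12 arrays. Psmb6 and Psme3 had no probe set with 1 symbol and were not analysed here. The mean of these genes lay between -0.24 and 0.12 in 7B12 and between -0.20 and 0.11 in the 6 controls.

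Further steps in the endoplasmic reticulum, given by Erap1, Calr, Canx, Pdia3 and Lnpep, trim peptides and fold the heavy chain. Over their 11 probe sets the median change was 0.02 in 7B12. At an unadjusted p under 0.05 there were 0 of 11, against 3.09% of all probe sets higher and 2.12% lower. With the replicate block 1 was higher, against 5.16% of all probe sets. In 11C7 the median was -0.02, and without the block 1 was lower at that p, against 2.23% of all. Genes of interferon signalling and of the regulators of class I genes, 21 of 22, were measured by 35 probe sets. Their median change was 0.10 in 7B12 and 0.001 in 11C7. In 11C7 0 were at that p, against 0.989% of all probe sets higher and 2.23% lower. In 7B12, 2 were higher with the replicate block, against 5.16% of all probe sets. Without the block 1 of 35 was higher, a share close to the 3.09% of all probe sets, and 0 were lower. The 1 was Stat2, a transcription factor gene of the type I interferon response, which stood 0.64 ± 0.26 (SE) above the controls in 7B12 by 1389571_at and 0.37 ± 0.31 by 1373670_at (adjusted p = 0.926 and 1 in limma). Irf1, a first-line interferon gamma target that drives several members, stood at 0.05 ± 0.23, and Nlrc5, the transactivator of class I genes, at -0.02 ± 0.35.

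Class I heavy chains, the partners of B2m, and their relatives were read by 24 probe sets of 16 genes, and 0 of these passed the adjusted test in limma. Their median change was 0.56 in 7B12 (range -0.56 to 1.58), with 21 above 0, against 50.3% of all probe sets. Those below were RT1-A3 by 1388256_at (-0.56), Fcgrt (-0.30) and RT1-CE5 by 1388254_a_at (-0.16). In 11C7 the median was 0.25, and -0.23 without 11C7 1. With all 11C7 arrays 15 were above 0, against 51.5% of all probe sets. At an unadjusted p under 0.05, 3 of 24 were higher in 7B12, against the 3.09% of all probe sets, and 0 lower, and all 3 belonged to RT1-S3, a nonclassical class I gene. In 11C7, 1 was higher at that p, RT1-A3 by 1371213_at (0.51 ± 0.22, SE), against 0.989% of all probe sets. There 1 was lower, RT1-N3 by 1370400_at (-1.46 ± 0.50), against 2.23%. With the replicate block 6 of 24 were higher in 7B12, against 5.16% of all probe sets. The 4 probe sets of RT1-S3 stood 1.54 ± 0.48, 1.29 ± 0.46, 1.12 ± 0.42 and 1.11 ± 0.57 (SE) above the controls, with adjusted p from 0.737 to 1 in limma. By 1371123_x_at RT1-S3 had values of 0.73, 1.05 and 1.52 in 7B12, of 1.04, -0.07 and -0.96 in 11C7, of 0.05, 0.10 and -1.41 in IgG and of 0.06, -0.62 and -0.80 in NT. All 3 arrays of 7B12 lay above all 6 controls, and 11C7 1 beside them. Some probe sets of this list differed strongly by replicate number. RT1-T24-4 stood between -6.39 and -4.55 in replicate 2 of all 4 groups, and between -0.06 and 0.92 in the other arrays. RT1-CE10 and RT1-CE12 were highest in replicate 2 within every group, but 11C7 1 was unlike the other arrays of its number. There they stood at 2.53 and 1.69, near the 2.88 and 1.97 of 11C7 2. In replicate 1 of 7B12, IgG and NT they ran from -0.97 to 0.20. The cause was not tested. Rat class I genes are near-identical copies, so a probe set may read several of them, and the gene behind each value is uncertain.

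**Figure D4:**
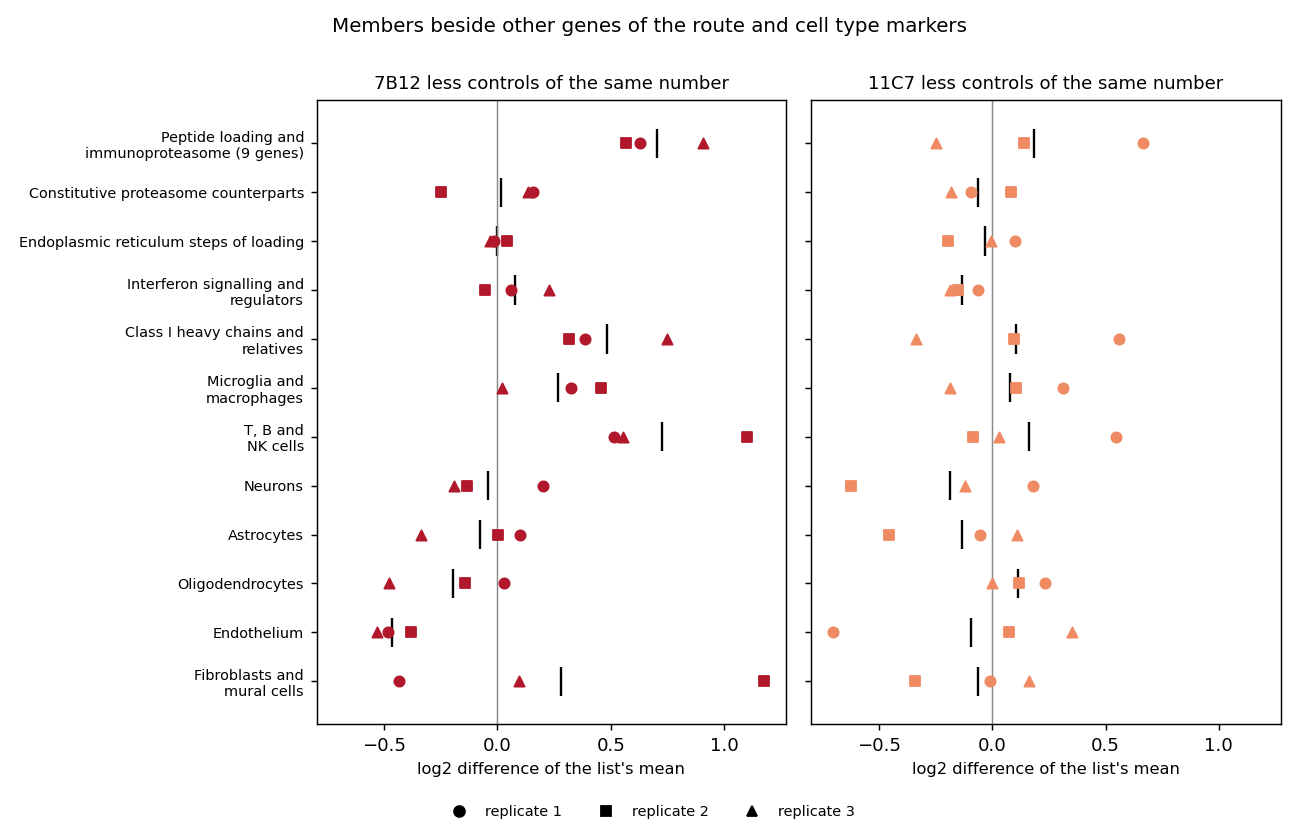
Mean log2 difference from the controls of the same replicate number (x axis) for the members, 4 lists of other genes of the route and 7 lists of cell type markers, with 7B12 in the left panel and 11C7 in the right. Each point is 1 replicate number and black bars are their means. The members, the class I heavy chains, the microglia and macrophage markers and the T, B and NK cell markers lie above 0 in all 3 numbers of 7B12, and the constitutive counterparts on both sides of 0.

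Markers of other cells differed between the arrays beside the members, and their part in the members' values was not tested. Microglia and macrophage markers, 10 of 12 genes by 14 probe sets, had means of -0.06 to 0.62 in 7B12, -0.41 to 0.41 in 11C7 and -0.61 to 0.70 in the controls. Against the controls of the same number they stood at 0.32, 0.46 and 0.02 in 7B12 and at 0.31, 0.11 and -0.19 in 11C7. Within this list Tmem119 stood 1.07 ± 0.37 (SE) higher in 7B12, while P2ry12 had changes of -0.51 and -0.61 and Trem2 of -0.65 and -0.63, in 2 probe sets each. At an unadjusted p under 0.05, 1 of the 14 was higher, against 3.09% of all probe sets. With the replicate block 4 were higher, against 5.16% of all, and 4 lower, against 4.29%. Lymphocyte and NK cell markers, 12 of 13 genes by 16 probe sets of which 14 were dim, had means of -1.24 to -0.62 in 7B12, -1.90 to -1.14 in 11C7 and -2.10 to -0.92 in the controls. They stood 0.52, 1.10 and 0.56 above the controls of the same number in 7B12 and at 0.55, -0.09 and 0.03 in 11C7. Cd3d, a T cell receptor subunit gene, stood 1.87 ± 0.44 higher in 7B12 and Cd79b, a B cell receptor subunit gene, 2.75 ± 0.93 (adjusted p = 0.558 and 0.802 in limma). Cd3d also stood 2.12 ± 0.51 (SE) higher in IgG than in NT. The changes of this list in 7B12 ran from -1.22 to 2.75 with a median of 0.56. Of the 16, 13 were above 0, against 50.3% of all probe sets. Those below were Ms4a1 (-1.22), a B cell gene, Cd8a by 1 of its 3 probe sets (-0.51) and Gzmb by 1 of 2 (-0.34), while Cd4 stood at 0.19.

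The median changes in 7B12 of the remaining marker lists were 0.06 for neurons, -0.03 for astrocytes, -0.15 for oligodendrocytes, -0.46 for endothelium and 0.61 for fibroblasts and mural cells. Against the controls of the same number, the fibroblast mean stood at -0.44, 1.18 and 0.09 in 7B12 and the endothelial mean at -0.48, -0.38 and -0.53, below 0 in all 3 numbers. Their part in the members' values was not tested either.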

How the data were processed

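RNA from 12 culture pools, 4 groups of 3, was read on Affymetrix rat arrays. The values the authors deposited are ratios. The submitters' processing notes name GCOS 1.4 and MAS5, and the design text names a per-array and per-gene normalization to the median of the controls. Within 0.0015, however, the median was 1 for 76.4% of probe sets when all 12 arrays were taken and for 11.2% when the 6 controls were. A constant divisor leaves log2 differences between groups unchanged. Ratios were taken to log2 and centred on each array's median. Of 31099 probe sets, 57 spike-in controls were left out. Platform annotation gave 1 symbol to 20826, several to 436 and none to 9780 probe sets. Groups came from the sample titles.

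Group means were fitted in limma 3.58.1 (R 4.3.3) over all probe sets and arrays, with eBayes without a trend, two-sided contrasts and Benjamini-Hochberg adjustment over 31042 probe sets, after tests on simulated data. The members, lists and tests were chosen with earlier results of these data known. All probe sets of the members were described. Of other genes of the route the text names the 4 probe sets with the smallest p in 7B12, with Nlrc5 and Irf1. It also names the 8 probe sets most like the members among genes in none of the lists. Any further name was chosen after values were seen.

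Replicate numbers were checked by correlating deviations from group means. All 9 same-number pairs among 7B12, IgG and NT had r of 0.12 to 0.42, and all 36 pairs of different numbers had r under 0.1 (highest 0.08), so these numbers were taken as paired. Deviations within a group sum to 0, so positive r at equal numbers lowers r at different numbers. The low r of different numbers is therefore not a separate finding. Pairs with 11C7 had r of 0.09 to 0.28, and 1 of these 9 missed 0.1. Alternatives were the replicate block, other centring, normalization, pseudocount, filter, controls, weights and variance moderation, and leaving out each array. NT alone as the control was added after seeing the data.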

Additional observations from a re-analysis of the deposited data

How the results depend on the processing

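The median change of the members kept its direction under every alternative run, from 0.52 to 0.83 in 7B12 and from 0.052 to 0.51 in 11C7. Among all probe sets 0 were called in each contrast, with exceptions in few settings. For 7B12, 68 were called with the replicate block and the 11C7 arrays left out, among them 1 member, Psmb8. Leaving out 1 array gave 0 to 10 calls for 7B12, 0 to 1 for 11C7, for both antibodies, for IgG against NT and for 7B12 against 11C7, and 0 to 2 over the 4 groups. Without 11C7 1 and with the replicate block, 99 were called for 7B12, 27 for 7B12 against 11C7 and 35 over the 4 groups, with 0 members. In the other paired fits with 1 array left out, 1 was called for 11C7, for 7B12 against 11C7 and over the 4 groups without 11C7 3, and 1 for IgG against NT without NT 2. Without dim probe sets 1 was called for IgG against NT, and Tap1 by 1375379_at then had no value. The methods' analysis of variance was run with a fold of at least 1.2, up or down, in 7B12 or 11C7 against the controls. With no adjustment it called 928 of 31042 probe sets and 2 of 12 members (Psmb9 and Tap1 by 1388149_at), and 0 after Benjamini-Hochberg. In 7B12 the second probe set of Psme1 turned to 0.085 in the replicate block without 7B12 2. In 11C7 the sign depended on single arrays. Leaving out 1 array gave -0.41 to 0.63 for Tap2, -0.098 to 0.27 for Tapbp, -0.17 to 0.99 for Tap1 by 1375379_at and -0.017 to 0.37 for B2m by 1367595_s_at. With the replicate block, Tap2 turned to -0.016 without IgG 1 and -0.32 without 11C7 1, Psmb10 to -0.044 and Tapbp to -0.22 without 11C7 1. Tapbp also turned with array weights (-0.037). With NT alone as the control, chosen after seeing the data, Tap1 by 1375379_at turned to -0.25 and Tapbp to -0.050 in 11C7, and 1 probe set, no member, was called for both antibodies. The cause of these differences was not tested. The signal over background behind a ratio is unknown.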
